A study of Arabidopsis thaliana with 2 samples.

Results

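Subtilases and serine carboxypeptidase-like (SCPL) proteins are both serine hydrolase families that pass through the secretory pathway. Their members in this series were found by name: genes with a probe that the platform annotation tied to 1 gene and whose current symbol begins with SCPL or SBT and a digit, together with ARA12. The rule gave 29 genes of 8819 with a named probe. Of these, 8 are subtilases (7 SBT symbols and ARA12) and 21 are SCPL genes, out of 49 SCPL symbols in the TAIR10.1 gene table. Each member had 1 probe. The other 28 SCPL genes were not analysed here. Subtilases under other symbols, such as ALE1, are not members, so the 8 are only a part of that family. Family values below are those of the members.

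The series set siliques of rge1-1, whose embryos are retarded in growth, against siliques of the Col-0 wild type, both at 12 DAF. Per the labels, plants of both genotypes were untreated and grown at 22 °C in long days (16 h light, 8 h dark). Total RNA from whole siliques was hybridised on 2 two-colour arrays, numbered replicates 1 and 2, with rge1-1 in Cy3 and Col-0 in Cy5 on both. The labels do not describe the rge1-1 allele, the number of plants behind an array, or separate harvests, so p-values rest on array-to-array spread alone, and that spread may be technical. A silique holds fruit wall, seed coat, endosperm and embryo together, and a lower share of cells of 1 type cannot be told apart from less RNA per cell. The deposited values are ratios, so the tissue label could not be checked through marker levels.

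RGE1, also called ZHOUPI, is a helix-loop-helix regulator of transcription in the endosperm. It is needed for the endosperm to break down around the growing embryo and for a continuous embryo cuticle, and one of the genes whose expression depends on it is ALE1, a subtilase. Subtilases are secreted proteases with an aspartate, histidine and serine in the active site, and plant members trim peptide hormones, pectin-modifying enzymes and other cell wall proteins. SCPL proteins share the fold of yeast carboxypeptidase Y. Some cut residues from the C-terminal end of proteins, while others, such as the sinapoyltransferases of seeds and leaves, have become acyltransferases that use glucose esters.

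The sign of a ratio cannot be assigned to a genotype. The table does not say which channel is the numerator: read as Cy5 over Cy3, a positive value is Col-0 over rge1-1, and read by the sample titles it is rge1-1 over Col-0. The targeted gene could not serve as a check, since 0 named probes belong to RGE1 or ALE1. The words positive and negative below refer to the deposited sign. Log2 values assume that the deposited logarithm has base 10. Dyes were swapped on 0 arrays, so unequal labelling of a probe by the dyes cannot be told apart from the genotype.

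Replicate 1 was shifted and more widely spread than replicate 2. The median log2 ratio over all 21426 rows (named genes and unnamed probes) was 0.16 on replicate 1 and 0.02 on replicate 2, and the SD was 0.53 and 0.34. Across rows, which are not independent replicates, Pearson's r between the arrays was 0.335. After Benjamini-Hochberg adjustment of limma's p-values, 0 of 21426 rows were under 0.05 (0.0%). When rows with an exact 0 on either array were left out, 55 of 20761 rows were under 0.05, none of them a member. With all rows kept, 1415 had an unadjusted p under 0.05 (6.6%). Robust limma counted 1537 rows at an unadjusted p under 0.05 and the unmoderated statistic 1052.

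None of the 29 members passed limma's test after adjustment over all rows, and the smallest adjusted p among them was 0.665. No member reached 2-fold on both arrays with the same sign, where 0.691% of all rows were, and none was at least 1.5-fold, where 2.54% were. On at least 1 array, 3 of 29 members reached 2-fold (scpl29, scpl50 and SBT4.12), against 7.5% of all rows. These shares are close to the background, given 29 genes. The 95% limma intervals of the members' mean log2 ratios extended 0.369 to 1.21 on either side, with a median of 0.442, and for 7 members the interval reached past 2-fold. For 2 members, SBT3.12 and SBT3.3, the interval did not include 0 before any adjustment.

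Among the subtilases, 2 of 8 were positive on both arrays, 3 were negative on both and 3 had opposite signs. Over all rows, 42.5% were positive on both arrays, 16.6% negative on both and 40.9% of opposite sign. With each array centred on its median, 2 of the 8 were positive on both arrays and 5 negative on both, where 30.6% of all rows were negative on both. On replicate 1 alone 5 subtilases were positive and 3 negative as deposited, where 68.5% of all rows were positive. On replicate 2 alone 2 were positive and 6 negative, where 54.8% of all rows were positive. The family median of the mean log2 ratio was -0.06, beside 0.08 over all rows, and the mean over the 8 genes was 0.01, so median and mean differ in sign. On single arrays the family median was 0.09 for replicate 1 and -0.13 for replicate 2. The members were more spread than their median shows, since the median absolute value of their mean ratios was 0.47, beside 0.16 over all rows. Their means ran from -0.60 for SBT4.12 to 0.53 for SBT3.12.

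**Figure D1:**
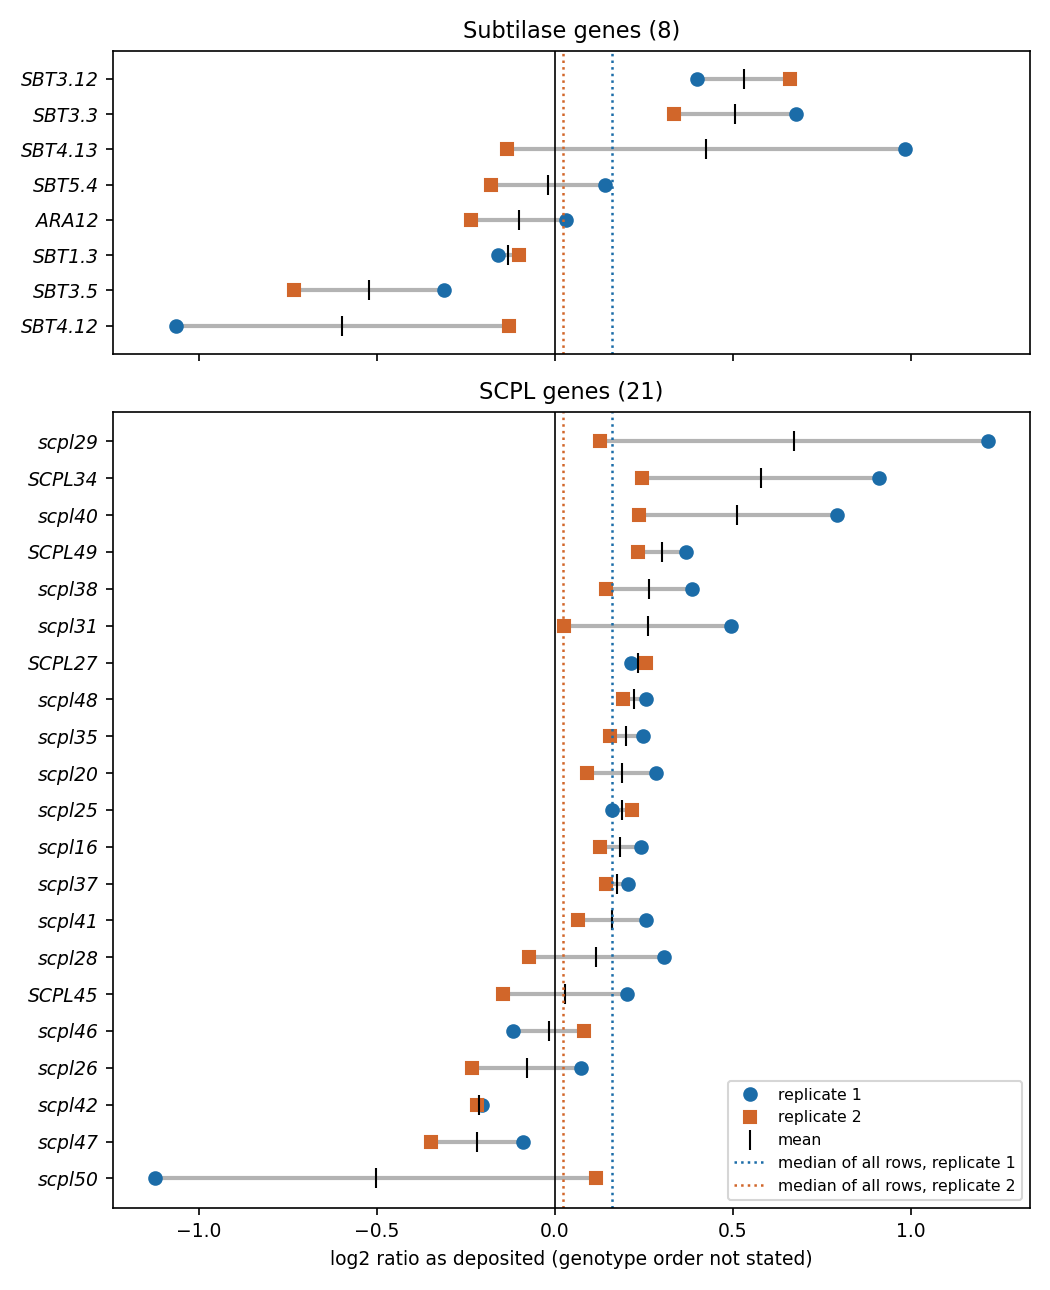
Deposited log2 ratio (x axis) of each subtilase (upper panel) and SCPL gene (lower panel) on replicate 1 (circles) and replicate 2 (squares), with the mean of both as a tick and the medians of all rows as dotted lines. SBT3.12 and SBT3.3 lie at 0.34 or above on both arrays and SBT3.5 at -0.31 or below, whereas scpl50 and SBT4.13 have opposite signs on the arrays.

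Of the subtilase members, those of the SBT3 subgroup had the 2 arrays furthest from equal with 1 sign. SBT3.12 had a log2 ratio of 0.40 on replicate 1 and 0.66 on replicate 2. Its mean was 0.53 ± 0.19 (SD, n = 2), with a limma p of 0.0318 and an adjusted p of 0.666. On replicate 2 it stood at the 98.1th percentile of all rows, and on replicate 1 at the 82.5th.

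SBT3.3, a subtilase known for its part in the priming of immune responses, had log2 ratios of 0.68 and 0.34 on replicates 1 and 2. Its mean was 0.51 ± 0.24 (SD, n = 2), with a limma p of 0.0454 and an adjusted p of 0.666. SBT3.12 and SBT3.3 were the 2 of 29 members with an unadjusted p under 0.05, both positive. Over all rows, 6.6% had such a p in either direction and 3.52% with a positive sign. Given 29 genes, a count of 2 is near the share in either direction. The count and the genes depended on the processing. With each array centred it was again 2, SBT3.3 and SBT3.5 but not SBT3.12, where 7.92% of all rows were under 0.05. With centring and scaling it was 4, with SCPL34 and scpl40 added to SBT3.3 and SBT3.5, where 9.09% of all rows were under 0.05. Without rows that hold an exact 0 it was 5, these 4 and SBT3.12, where 9.54% of rows were.

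SBT3.5, which processes a pectin methylesterase in roots, lay on the other side, at -0.31 on replicate 1 and -0.73 on replicate 2. Its mean was -0.52 ± 0.30 (SD, n = 2), with a limma p of 0.0537 and an adjusted p of 0.666. Its value was at the 2.73th percentile of all rows on replicate 2 and at the 13.7th on replicate 1. The 3 SBT3 members thus kept their sign on both arrays, and they did so with unlike signs. SBT1.3 and SBT4.12 also kept their sign, and over all rows only 40.9% had opposite signs. The SBT3 subgroup was not a group set in advance.

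SBT4.12 and SBT4.13, subtilases that can release the IDA peptide controlling the shedding of floral organs, differed between the arrays by more than their means. SBT4.12 was -1.06 on replicate 1 and -0.13 on replicate 2, with a mean of -0.60 ± 0.66 (SD, n = 2), a limma p of 0.137 and an adjusted p of 0.666. SBT4.13 was 0.98 on replicate 1 and -0.13 on replicate 2. The large ratios of both genes therefore come from replicate 1, and on replicate 2 they were alike.

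ARA12, also known as SBT1.7, is the subtilase of the seed coat that is needed for mucilage to leave the wetted seed. It had log2 ratios of 0.03 on replicate 1 and -0.24 on replicate 2, a mean of -0.10 ± 0.19 (SD, n = 2), a limma p of 0.516 and an adjusted p of 0.773. The 95% interval of its mean ran from -0.55 to 0.34 and included 0. SBT1.3 was -0.16 and -0.10 on replicates 1 and 2, and SBT5.4 was 0.14 and -0.18.

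**Figure D2:**
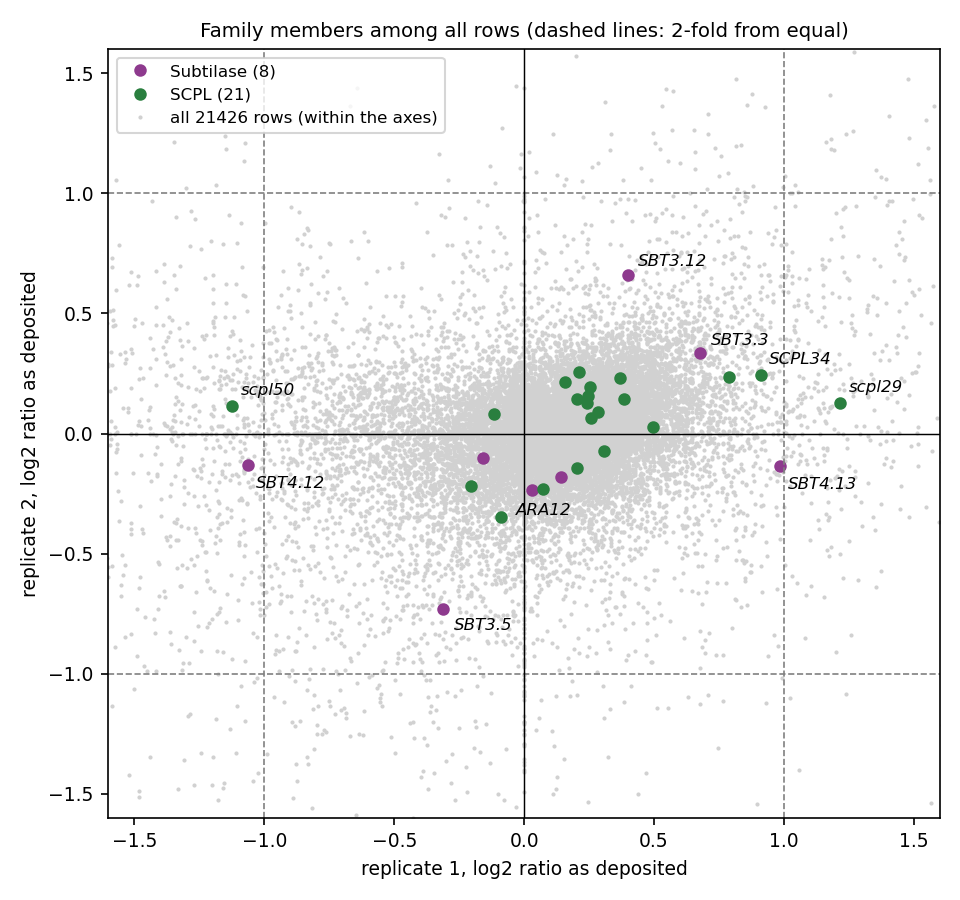
Deposited log2 ratio on replicate 1 (x axis) and replicate 2 (y axis) of the subtilases, the SCPL genes and all rows that fall within the axes, with dashed lines at 2-fold from equal. No member lies in a corner past 2-fold on both arrays, and scpl29, scpl50 and SBT4.12 pass it on replicate 1 only.

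The SCPL genes leaned to positive values of small size. Of 21 members, 14 were positive on both arrays, 2 negative on both and 5 of opposite sign, beside 42.5% positive on both and 16.6% negative on both over all rows. Because replicate 1 as a whole is shifted to positive values, the count was repeated with each array centred on its median: 13 of 21 were then positive on both arrays, beside 30.6% of all rows. The lean was not tested, since the genes were chosen by name with earlier results known. The family median was 0.19, beside 0.08 over all rows and 0.08 over all named genes, or 0.10 with centring, beside -0.0082 over all rows.

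By array, the SCPL median was 0.25 on replicate 1, where all rows had 0.16, and 0.13 on replicate 2, where all rows had 0.02. On replicate 1, 17 of 21 SCPL genes were positive, as were 68.5% of all rows, and on replicate 2, 16 of 21 were positive, as were 54.8% of all rows. The negative SCPL genes numbered 4 on replicate 1 and 5 on replicate 2. The spread over the SCPL genes differed between the arrays, from -1.12 to 1.22 on replicate 1 and from -0.35 to 0.25 on replicate 2. On both arrays together, 17 of 21 SCPL genes stayed within 0.5 of equal on the log2 scale, as did 3 of 8 subtilases and 16247 of 21426 rows.

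**Figure D3:**
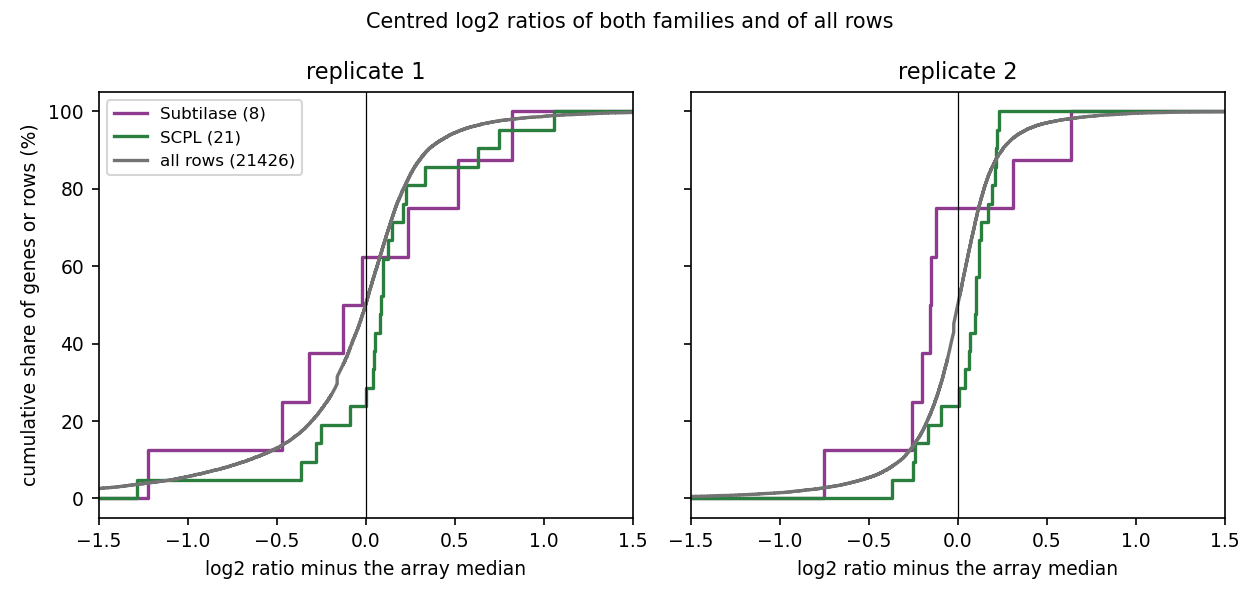
Cumulative share (y axis, percent) of the 8 subtilases, the 21 SCPL genes and all rows below a given log2 ratio after subtracting each array's median (x axis), with 1 panel per replicate. The SCPL median lies 0.09 above that of all rows on replicate 1 and 0.10 above it on replicate 2, and the subtilase median lies below it on both, at -0.07 and -0.15.

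SCPL34 had the largest smaller value of the SCPL genes, with log2 ratios of 0.91 on replicate 1 and 0.24 on replicate 2. Its mean was 0.58 ± 0.47 (SD, n = 2), with a limma p of 0.0836 and an adjusted p of 0.666. scpl40 was close to it, at 0.79 and 0.23 on replicates 1 and 2, with a mean of 0.51 ± 0.39 (SD, n = 2), a limma p of 0.0821 and an adjusted p of 0.666. SCPL34 stood at the 97.5th percentile of all rows on replicate 1 and at the 88.1th on replicate 2, and scpl40 at the 96.4th and the 87.3th.

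SCPL49, the Arabidopsis gene that the gene table also names carboxypeptidase Y after the vacuolar enzyme of yeast, was more even. It had log2 ratios of 0.37 on replicate 1 and 0.23 on replicate 2, a mean of 0.30 ± 0.10 (SD, n = 2), a limma p of 0.0912 and an adjusted p of 0.666. SCPL27 was 0.21 on replicate 1 and 0.25 on replicate 2, with a mean of 0.23 ± 0.03 (SD, n = 2), a limma p of 0.137 and an adjusted p of 0.666. With each array centred, SCPL49 was at 0.21 on both arrays, while SCPL27 was at 0.05 and 0.23.

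scpl29 had the largest mean of the family, 0.67 ± 0.77 (SD, n = 2), but rested on 1 array, with 1.22 on replicate 1 and 0.13 on replicate 2. scpl50 was further apart still, at -1.12 on replicate 1 and 0.12 on replicate 2. Its mean of -0.50 is therefore the mean of opposite values. scpl31 was 0.49 and 0.03, and scpl38 was 0.39 and 0.14.

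The other SCPL genes that were positive on both arrays had means between 0.16 and 0.22. scpl48 (0.26 and 0.19 on replicates 1 and 2), scpl35 (0.25 and 0.16), scpl25 (0.16 and 0.22), scpl16 (0.24 and 0.13) and scpl37 (0.21 and 0.14) differed by between 0.06 and 0.11 from one array to the other. scpl20 was 0.28 and 0.09, and scpl41, a gene with a reported part in membrane lipid metabolism, 0.26 and 0.07. scpl25 lay at the median of its array on replicate 1, so its sign turned there with centring.

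Negative values on both arrays were found for scpl42, at -0.20 and -0.22 on replicates 1 and 2, and for scpl47, at -0.09 and -0.35. Their means were -0.21 ± 0.0092 and -0.22 ± 0.18 (SD, n = 2 each). Opposite signs with small values were found for scpl28 (0.31 and -0.07), SCPL45 (0.20 and -0.14), scpl46 (-0.12 and 0.08) and scpl26 (0.07 and -0.23). With centring scpl26 became negative on both arrays, as did SBT5.4 and ARA12 among the subtilases.

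Some members lie next to, or a few genes from, another member of the family, as looked up in the order of protein-coding genes after the values had been seen. SBT3.5 and SBT3.3 have 1 gene between them. The difference of their log2 ratios, SBT3.5 minus SBT3.3, was -0.99 on replicate 1 and -1.07 on replicate 2, or -1.03 ± 0.05 (SD, n = 2). This difference is free of any shift common to an array, and it had the smallest spread relative to its size among the 4 neighbouring pairs. It was not tested, since the pair was singled out after its values were known.

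The other neighbouring pairs differed less or less evenly. SBT4.12 minus SBT4.13, with 3 genes between them, was -2.05 on replicate 1 and 0.0053 on replicate 2. scpl41 minus scpl42, with 2 genes between them, was 0.46 on replicate 1 and 0.28 on replicate 2, or 0.37 ± 0.13 (SD, n = 2). scpl28 minus scpl26, adjacent genes, was 0.23 and 0.16 on replicates 1 and 2. Whether probes of related genes share hybridisation signal was not tested, as probe sequences were not used here.

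**Figure D4:**
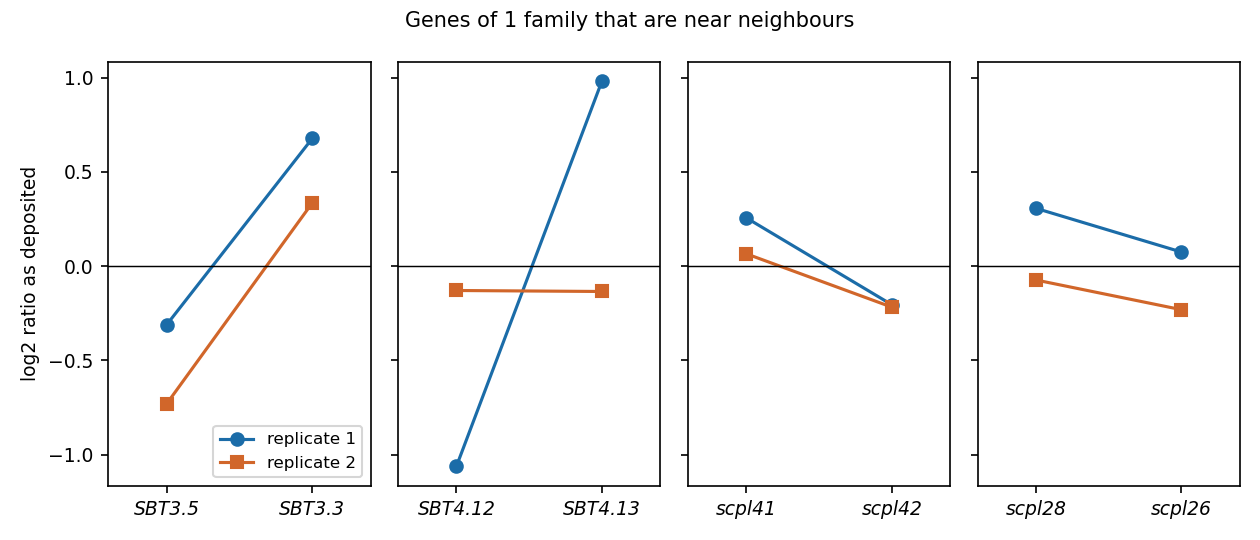
Deposited log2 ratio (y axis) of the 2 genes of each of 4 neighbouring pairs, joined by a line for replicate 1 (circles) and replicate 2 (squares). The lines of SBT3.5 and SBT3.3 run nearly parallel with a difference of -0.99 and -1.07, whereas those of SBT4.12 and SBT4.13 do not.

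Across the 21 SCPL genes the 2 arrays correlated with a Pearson r of 0.327 and a Spearman rho of 0.438, and across the 8 subtilases with 0.413 and 0.357. These are descriptions over genes that share the same 2 hybridisations, beside a Pearson r of 0.335 and a Spearman rho of 0.273 over all rows.

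Other genes of the same functions were read from 12 lists of proteases, inhibitors, pathways and tissues, of which 9 had at least 1 gene with a named probe that is not a member. Of the 21 genes they held, 7 were positive on both arrays and 6 negative on both. In the same 21 genes, 0 passed limma's test adjusted over all rows and 0 reached 2-fold on both arrays with the same sign. Over all rows, 42.5% were positive on both arrays, 16.6% negative on both and 0.691% past 2-fold with 1 sign. Of 11 subtilase genes listed under other names, 3 had a named probe and are not members. Their median log2 ratio was 0.16, and 0.07 after centring. SBTI1.1 was 0.16 and 0.25 on replicates 1 and 2, and S1P, a site-1 protease of the Golgi, 0.38 and -0.06. SNG1 and SCPL19 (SNG2), the genes of the sinapoyltransferases, and BRS1, which can restore brassinosteroid signalling when overexpressed, had 0 named probes.

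Other protease classes had few named genes. Of 16 cysteine endopeptidase genes 3 were named, and their median was -0.03, and -0.12 after centring. BETA-VPE, the vacuolar processing enzyme that matures seed storage proteins, was -0.83 and -0.23 on replicates 1 and 2, and ALPHA-VPE was 0.08 and 0.16. Of 6 aspartic endopeptidase genes 2 were named, and their median was -0.15, and -0.24 after centring. APA1, a vacuolar aspartic protease, was -0.74 and -0.52, with a mean of -0.63 ± 0.16 (SD, n = 2), a limma p of 0.018 and an adjusted p of 0.666. NANA, the other one, was 0.62 and 0.05.

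The 3 of 22 named organelle protease genes had a median of 0.13, or 0.04 with centring, with SPPA at 0.15 and 0.39 and CLPP4 at 0.38 and -0.12 on replicates 1 and 2. The protease inhibitors, 2 of 10 named, had a median of -0.20, or -0.29 with centring. The cystatin gene CYS1 was -0.62 and 0.15, and SERPIN1, which inhibits cysteine proteases although it has a serpin fold, -0.35 and 0.02. Metacaspases (9 genes) and genes of seed coat mucilage (11 genes) had 0 named probes. UGT84A3, 1 of 14 genes of sinapate esters and phenylpropanoids, was 0.48 and -0.03.

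Of 10 genes of RGE1 and the embryo cuticle, CR4 and GSO1 were named, receptor kinase genes of the embryo surface. GSO1 perceives a peptide that ALE1 cuts to its mature form. CR4 was 0.98 and 0.61 on replicates 1 and 2, past 1.5-fold on both, with a mean of 0.80 ± 0.26 (SD, n = 2), a limma p of 0.0151 and an adjusted p of 0.666. GSO1 was 0.48 and 0.39, with a mean of 0.43 ± 0.06 (SD, n = 2), a limma p of 0.0356 and an adjusted p of 0.666. The median of this pair was 0.62, and 0.53 after centring. Among tissue markers, 3 of 12 endosperm genes were named, and their median was -0.39, and -0.49 after centring. AGL62 was -0.41 and -0.91 on replicates 1 and 2, with a mean of -0.66 ± 0.36 (SD, n = 2), a limma p of 0.039 and an adjusted p of 0.666. The statistics of CR4, GSO1 and AGL62 were added after their values were seen. These genes and APA1 were the only list genes with an unadjusted limma p under 0.05, beside 6.6% of all rows. AGL38 was -0.79 on replicate 1 and 0.0011 on replicate 2. Its mean is the median of the 3 endosperm genes, so that median rests on replicate 1. AGL28 was close to equal, at -0.08 and -0.09 on replicates 1 and 2. The seed coat genes, 2 of 15 named, had a median of 0.07, or -0.02 with centring, with DFR at -0.09 and 0.27 and BAN at 0.29 and -0.19. The part of tissue composition in the ratios of the subtilases and SCPL genes was not tested.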

How the data were processed

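The authors deposited 1 table with a log10 ratio of both channels for each of 21500 probes on 2 arrays. Base 10 is read from its form, as the table names no base. The scanner software was Agilent Feature Extraction 7.1.1, per the submitters' processing notes. How dyes were normalized and probes filtered was not given in the sources used here. Probes were named from the platform annotation through gene IDs to TAIR10.1 symbols: 8893 had 1 gene, 39 several and 12568 none. Values were turned to log2 and probes of a gene averaged, giving 21426 rows. No array was centred in the main analysis. limma 3.58.1 (R 4.3.3) tested each row's mean against 0 (intercept only, eBayes, two-sided), with Benjamini-Hochberg adjustment over all rows. The number of arrays limits the precision.

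Members and lists were chosen with earlier results of these data known. All members are named. By rule, mean, SD and p were given for ARA12 and, per family, the 4 members of 1 sign on both arrays with the largest smaller absolute ratio, and both values for opposite-signed members over 0.5 apart. Up to 2 genes were named per list, except that all 3 measured endosperm genes were named. The statistics of APA1, CR4, GSO1 and AGL62 were added after their values were seen. Centring, scaling, exact zeros, probe averaging, log base, moderation and single arrays were tried as alternatives.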

Additional observations from a re-analysis of the deposited data

How the results depend on the processing

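Subtracting a running median along probe IDs, and counting members under each alternative, were chosen after seeing the data. In every alternative with a test 0 of 29 members passed, with a smallest adjusted p between 0.381 (rows with an exact 0 left out) and 0.808 (no moderation). Over all rows limma's 0 calls became 55 without rows that hold an exact 0, none of them a member, and stayed 0 under the other alternatives. A test with 1 array left was not possible. Rows at least 2-fold from equal with 1 sign, 148 in all, numbered 544 at 1.5-fold, 46 at 3-fold and 14 if the values are log2. With 1 array left they ranged from 419 to 1352. The SCPL median of 0.19 was 0.10 with centring, 0.10 with scaling as well, and 0.056 if the values are log2, and on single arrays it ran from 0.13 to 0.25. The subtilase median of -0.06 ran from -0.13 to 0.09 on single arrays and was 0.01 as a mean over members. SCPL genes negative on both arrays, 2 in all, numbered 4 to 5 on single arrays. Subtilases positive on both arrays, 2 in all, numbered 2 to 5 on single arrays. Subtilases negative on both arrays, 3 in all, numbered 5 with centring or scaling and 3 to 6 on single arrays. A gene or row that meets a limit on both arrays meets it on each. Single-array counts of genes or rows therefore cannot be lower, and they are not like for like. SCPL45, with a mean of 0.03, turned to -0.062 with centring, -0.086 with scaling and -0.064 with the running median. Members at an unadjusted p under 0.05, 2 in all, numbered 4 with scaling and 5 without rows that hold an exact 0. They numbered 3 with the running median or robust eBayes and 1 (scpl42) with no moderation. The shares of all rows under 0.05 were 9.09% with scaling, 9.54% without exact zeros and 8.34% with the running median. These shares were 7.17% with robust eBayes and 4.91% with no moderation, beside 6.6% in the main analysis. Each ratio already pairs the genotypes within its array, so a fit with a replicate block adds nothing.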
